A study of Mus musculus with 9 samples.

Results

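Genes that code for 10 enzymes of sphingolipid and ceramide metabolism were followed in mouse liver, namely Sptlc1, Sptlc2, Degs1, Degs2, Ugcg, Smpd1, Smpd3, Asah2, Sphk2 and Sgpl1. They were taken by gene name from the array files, where 21 of 41174 probes carried 1 of these 10 names, and 9 of the 10 genes were among the 17629 genes tested. Livers came from male C57bl/6J mice aged 16 weeks for which the labels name no genetic change, after 12 weeks on 1 of 3 diets. The HFD+APS group ate a high-fat diet (60 kcal% fat) with 40 g of Astragalus polysaccharides (APS) per kg of diet, the HFD group ate the same high-fat diet, and the chow group ate standard food. APS are long-chain sugars extracted from Astragalus, a medicinal plant. Each group held 3 livers with 1 array each, all chosen from larger groups for their histology (HE staining) and TG values. With 3 arrays per group precision is low, and a p-value here speaks of the spread among chosen livers.

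Sphingolipids are built on a long-chain base. Serine palmitoyltransferase joins serine and palmitoyl-CoA, ceramide synthases add a second acyl chain, and a desaturase then gives ceramide. Ceramide can be turned into glucosylceramide or sphingomyelin, released again from sphingomyelin by sphingomyelinases, or cut by ceramidases to sphingosine, which is phosphorylated to sphingosine 1-phosphate and finally cleaved. In liver, ceramide is known above all for its rise with lipid overload and for its interference with insulin signalling.

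Signals are given on the log2 scale relative to the 75th percentile of the same array, so that 1 unit is a doubling, and levels of different probes are not set against each other. Changes are log2 differences ± SE from 1 limma fit over all 9 arrays, and a gene was called where its p, adjusted by the Benjamini-Hochberg method for all 17629 genes, was under 0.05. HFD+APS 2 and HFD+APS 3 were on slide 3, HFD+APS 1 was on slide 2 together with every HFD array, and slide 1 carried chow only, so chow and its slide cannot be told apart. Spots read well above background made up 54.1 to 64.5% of each HFD+APS array, 50.4 to 53.9% of each HFD array and 61.5 to 68.4% of each chow array. All 8 hepatocyte markers were measured, with a summed signal (in multiples of the array's 75th percentile) of 1564 to 2008 in HFD+APS, 1465 to 1864 in HFD and 1814 to 1996 in chow. Such a sum mostly follows the brightest markers of its list, here and below. Within this list 1 of 8, Tat, was called lower in HFD than in chow (-0.75 ± 0.18, limma adjusted p = 0.0384). Between HFD+APS and HFD 1 of 8, Cps1, was called higher in HFD+APS (1.11 ± 0.19, limma adjusted p = 0.0341). Because whole liver was used, fewer cells of a type and less RNA per cell cannot be told apart.

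The probes are the sequences on which the values rest, and for Sptlc2 and Asah2 the reading depended on the probe. Probes of these genes and 1 of Smpd3 are shown 5′ to 3′ as given in the array files, with positions on mm9. Sptlc2 carried 4 detected probes on the reverse strand of chromosome 12, of which the brightest is assigned to a cDNA clone and lies 44.8 kb upstream of the nearest of the 3 probes assigned to the RefSeq transcript. For Asah2, a second probe and an upstream probe on chromosome 19 are given because their differences were unequal. For Smpd3, 1 probe of 60 bases spans 199 bases of the genome on chromosome 8, so it crosses a gap in the alignment.
Sptlc2 clone probe, chr12:88728458-88728517: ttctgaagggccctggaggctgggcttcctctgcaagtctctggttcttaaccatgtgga
Sptlc2 RefSeq probe, chr12:88683609-88683668: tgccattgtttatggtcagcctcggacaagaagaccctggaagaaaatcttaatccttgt
Asah2 second probe, chr19:32061250-32061309: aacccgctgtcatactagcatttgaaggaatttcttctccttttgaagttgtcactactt
Asah2 upstream probe, chr19:32120669-32120728: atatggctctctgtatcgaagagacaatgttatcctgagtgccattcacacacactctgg
Smpd3 gapped probe, chr8:108781289-108781487: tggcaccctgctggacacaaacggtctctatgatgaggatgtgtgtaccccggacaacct
Whether a probe lies in an exon, an intron or a UTR was not determined, since no genome annotation of that build was used here. The other 16 probes are described by their values. There were 5 genes with several probes and 5 with 1, and 19 of the 21 probes were detected, that is, well above background on at least 3 arrays. The probe used for each of the 9 tested genes was well above background on all 9 arrays, so none of them entered through 1 group alone.

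**Figure D1:**
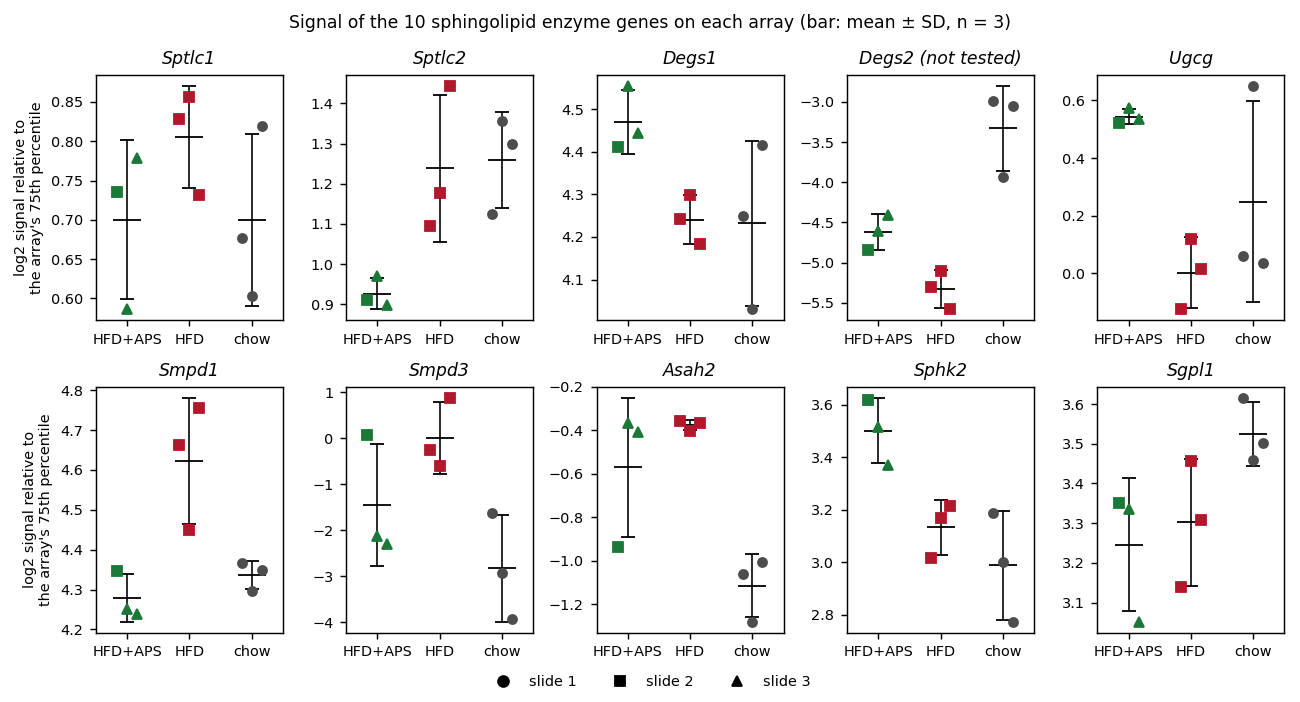
Log2 signal, scaled to the 75th percentile of each array, for the 10 genes, with HFD+APS, HFD and chow from left to right, 1 point per array, the marker giving the slide and the bar the mean ± SD of 3 arrays. Asah2 and Smpd3 are higher on the HFD than on the chow arrays, and HFD+APS 1 stands apart from HFD+APS 2 and HFD+APS 3 in both genes. Vertical axes differ between panels and do not start at 0.

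HFD livers were first set against chow livers, to see which of these enzymes differed after fat feeding. Asah2 was the 1 gene called among 9, and it rose 1.67-fold. Smpd3 stood 7.15-fold higher in HFD and missed the threshold (adjusted p = 0.0522). By limma, counts were 1 higher and 0 lower among the 9 genes, against 4.25% of all 17629 genes called higher and 6.67% called lower (10.9% in all), and the median difference was 0.11 for the 9 genes and -0.05 over all genes. An unadjusted p under 0.05 was found for 3 of the 9, against 31.4% of all genes, and groups did not overlap for 4 of the 9, against 38.6% of all genes.

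The first step of synthesis gave different readings by probe. Sptlc1 and Sptlc2 code for the paired subunits of serine palmitoyltransferase. Sptlc1 read 0.83, 0.86 and 0.73 in HFD and 0.68, 0.60 and 0.82 in chow, which overlapped (0.11 ± 0.10, adjusted p = 0.526). For Sptlc2, the clone probe, which is the brightest and so stands for the gene, read 1.09, 1.18 and 1.44 in HFD and 1.13, 1.36 and 1.30 in chow (-0.02 ± 0.12, adjusted p = 0.924). The RefSeq probe shown above read -1.27, -1.40 and -1.09 in HFD and -1.76, -1.85 and -1.73 in chow. Its groups did not overlap, and its difference of 0.52 ± 0.11 was called over all probes (adjusted p = 0.0261). The other RefSeq probes of Sptlc2 gave 0.39 ± 0.16 (adjusted p = 0.132) and 0.61 ± 0.19 (adjusted p = 0.0729). The 3 probes assigned to the transcript were thus higher in HFD by 0.39 to 0.61, of which 1 was called, and the clone probe was not. Testing each probe was chosen after the values were seen, with 9.98% of 26473 probes called in HFD against chow.

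Degs1, the desaturase that turns dihydroceramide into ceramide, read 4.24, 4.30 and 4.18 in HFD and 4.25, 4.03 and 4.41 in chow. The HFD values lay inside the chow range (0.01 ± 0.12, adjusted p = 0.97), and the 95% interval ran from -0.26 to 0.28. Degs2, which codes for a related desaturase and hydroxylase that makes phytoceramide, was the gene not tested, because its single probe (chromosome 12, 109928501 to 109928560) was well above background on 2 of 9 arrays, both of chow. It read -5.31, -5.11 and -5.58 in HFD and -2.99, -3.94 and -3.06 in chow. The HFD arrays were not well above background, so no fold was measured. Each HFD array was counted at its own detection limit (its lowest signal among probes well above background). HFD then stood 1.04-fold lower than chow. This is not a strict bound, since the chow array that was not well above background counts at its read value. HFD arrays also had the smallest share of spots well above background, and the part of this in the Degs2 reading was not tested. Ugcg makes glucosylceramide, the first glycosphingolipid. It read -0.13, 0.12 and 0.01 in HFD and 0.06, 0.65 and 0.03 in chow, with chow 2 standing above the other chow arrays (-0.25 ± 0.17, adjusted p = 0.359).

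Smpd3 codes for neutral sphingomyelinase 2, which releases ceramide from sphingomyelin. Its brightest probe (chromosome 8, 108778800 to 108778859) read -0.25, -0.61 and 0.88 on the HFD arrays and -1.62, -2.94 and -3.93 on the chow arrays. Every HFD array lay above every chow array, HFD 3 was the highest of the 9 arrays, and the spread within groups was wide (SD of 0.78 in HFD and 1.16 in chow, n = 3 each). The difference was 2.84 ± 0.77, with a 95% interval from 1.06 to 4.62. The 2 other probes gave 2.74 ± 0.63 (adjusted p = 0.0345 over all probes) and 1.98 ± 0.72 (the gapped probe, well above background on 3 of 9 arrays, adjusted p = 0.109). Across the 9 arrays the 3 probes correlated at r = 0.88 to 0.99, as a description. Without HFD+APS 1 the same difference passed (adjusted p = 0.0258), and with normexp background correction it was 1.66 and passed (adjusted p = 0.0445). Leaving out 1 array at a time gave 2.29 to 3.44, and leaving out any chow or HFD array, HFD+APS 2 or HFD+APS 3 gave no call (adjusted p up to 0.141). Smpd1, the acid sphingomyelinase of lysosomes, read 4.66, 4.45 and 4.76 in HFD and 4.37, 4.30 and 4.35 in chow. The HFD values lay above the chow values without overlap, and the difference of 0.29 ± 0.11 did not pass (adjusted p = 0.114).

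Asah2 codes for neutral ceramidase, which cuts ceramide to sphingosine and a fatty acid. Its brightest probe (chromosome 19, 32059706 to 32059765) read -0.36, -0.40 and -0.37 on the HFD arrays and -1.06, -1.28 and -1.005 on the chow arrays. The 3 HFD values lay within a narrow range above every chow value, with means of -0.38 ± 0.02 and -1.11 ± 0.15 (SD, n = 3 each). The difference was 0.74 ± 0.16 (limma adjusted p = 0.0303). The second probe gave 0.77 ± 0.18 and was called when each probe was tested on its own (adjusted p = 0.0344 over all probes), while the upstream probe gave 0.25 ± 0.18 (adjusted p = 0.382). That upstream probe was dim, being well above background on 6 of 9 arrays, and a probe assigned to a cDNA clone was so on 1 of 9 and is not used. The call of Asah2 ended without any 1 chow or HFD array, with adjusted p from 0.0615 (without chow 1) over 0.0658 (chow 3), 0.0667 (HFD 1), 0.0739 (HFD 2) and 0.0755 (HFD 3) to 0.0993 (chow 2), while the difference stayed between 0.66 and 0.79. It also ended with slide as a random block (0.78, adjusted p = 0.0562) and with the mean of the detected probes (0.59, adjusted p = 0.0552). Calls over all 17629 genes fell as well when a chow or HFD array was left out. They went from 1924 to between 326 (without chow 2) and 1217 (without HFD 1). With slide as a random block 669 genes were called.

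Sphk2, a sphingosine kinase of nucleus and mitochondria, read 3.02, 3.17 and 3.22 in HFD and 3.19, 3.00 and 2.77 in chow, which overlapped (0.15 ± 0.13, adjusted p = 0.493). Sgpl1 cleaves sphingosine 1-phosphate and is the exit from the pathway. It read 3.14, 3.46 and 3.31 in HFD and 3.62, 3.46 and 3.50 in chow (-0.22 ± 0.13, adjusted p = 0.271), and its second probe gave -0.30 ± 0.14.

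**Figure D2:**
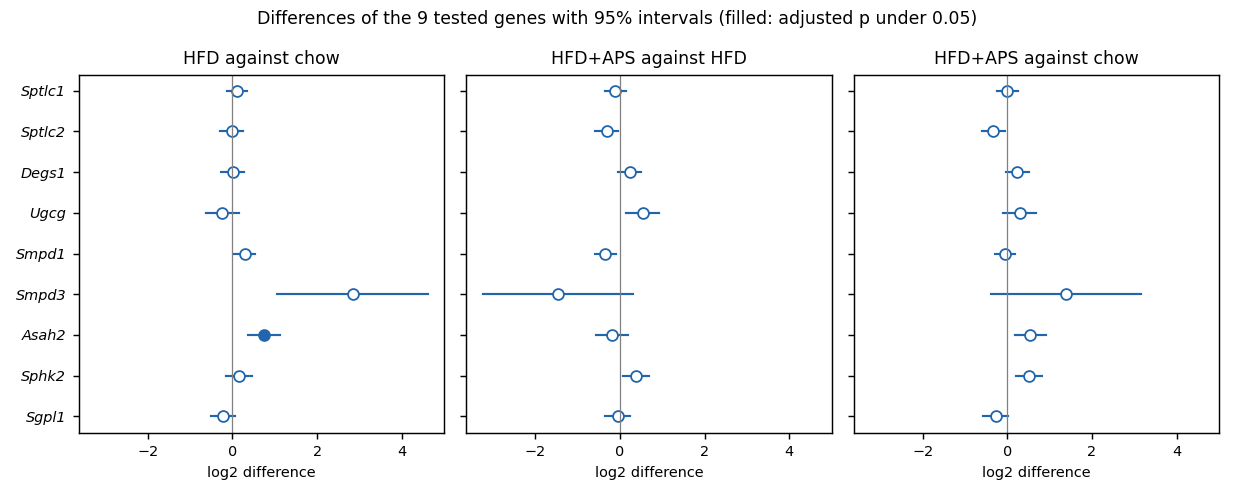
Log2 differences of the 9 tested genes (points) with 95% intervals (lines) in the 3 comparisons, each as the first-named group minus the second. Asah2 in HFD against chow is the one filled point (0.74), and the interval of Smpd3 (1.06 to 4.62 there) is the widest.

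The comparison of HFD+APS with HFD asked what the polysaccharides changed on top of the high-fat diet. No member was called by limma (0 of 9, against 1.39% of all genes), and 4 of the 9 had an unadjusted p under 0.05, against 17.7% of all genes. Ugcg and Sphk2 stood higher and Smpd1 and Sptlc2 lower in HFD+APS, by 0.31 to 0.54 in size, with adjusted p from 0.156 to 0.23. Groups did not overlap for 5 of the 9 genes, against 24.4% of all genes, and the median difference was -0.11, against 0.01 over all genes.

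Ugcg read 0.52, 0.57 and 0.54 in HFD+APS and -0.13, 0.12 and 0.01 in HFD. All 3 HFD+APS values lay close together and above every HFD value (0.54 ± 0.17, a 1.46-fold higher level, adjusted p = 0.158). Its 2 RefSeq probes gave 0.52 ± 0.20 and 0.34 ± 0.19, the same direction, and neither was called. Smpd1 read 4.35, 4.25 and 4.24 in HFD+APS and 4.66, 4.45 and 4.76 in HFD, again without overlap (-0.34 ± 0.11, adjusted p = 0.156). Sphk2 read 3.62, 3.52 and 3.37 in HFD+APS, above the HFD values of 3.02, 3.17 and 3.22 (0.37 ± 0.13, adjusted p = 0.206). The clone probe of Sptlc2 read 0.91, 0.97 and 0.90 in HFD+APS and 1.09, 1.18 and 1.44 in HFD (-0.31 ± 0.12, adjusted p = 0.23). Here its other 3 probes pointed the same way, with -0.27 to -0.72, and none was called.

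Slide 2 held HFD+APS 1 beside the HFD arrays, so the difference can also be read within it, from 1 array against 3. There Ugcg differed by 0.52, Sphk2 by 0.49, Smpd1 by -0.28 and Sptlc2 by -0.33. The direction of these 4 values was already fixed, since the groups of each gene do not overlap and HFD+APS 1 is part of the full comparison. Smpd3 did not keep its direction. It read 0.07 on HFD+APS 1, inside the HFD range, against -2.12 and -2.29 on HFD+APS 2 and HFD+APS 3, so that the full difference of -1.46 ± 0.77 (adjusted p = 0.364) became 0.06 within the slide. Asah2 showed the opposite order of arrays. It read -0.94 on HFD+APS 1, below every HFD array, against -0.37 and -0.41 on HFD+APS 2 and HFD+APS 3, giving -0.56 within the slide and -0.19 ± 0.16 in the full comparison (adjusted p = 0.564). HFD+APS 1 thus stood apart from the pair on slide 3 in both genes. Liver and slide cannot be told apart in this split.

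The remaining members were Degs1 (4.41, 4.55 and 4.44 in HFD+APS, above the HFD arrays by 0.23 ± 0.12, adjusted p = 0.352), Sptlc1 (0.74, 0.59 and 0.78, -0.11 ± 0.10, adjusted p = 0.63) and Sgpl1 (3.35, 3.34 and 3.05, -0.06 ± 0.13, adjusted p = 0.857). Degs2 was not well above background on any HFD+APS or HFD array, so no fold is given.

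HFD+APS against chow compared the treated livers with those of chow-fed mice. The 3 comparisons share arrays in pairs and are not independent of each other. No member was called by limma (0 of 9, against 3.54% of all genes), and 3 had an unadjusted p under 0.05, against 25% of all genes. Groups did not overlap for 4 of the 9 genes, against 30.8% of all genes, and the median difference was 0.24 against -0.04 over all genes. Sphk2 was 1.43-fold higher in HFD+APS, with 3.62, 3.52 and 3.37 against 3.19, 3.00 and 2.77 in chow. All HFD+APS values were above all chow values (0.51 ± 0.13, adjusted p = 0.07). Asah2 stood 0.55 ± 0.16 higher in HFD+APS (adjusted p = 0.0947), with HFD+APS 1 (-0.94) just above the highest chow array (-1.005). Without HFD+APS 1 the difference of Asah2 was 0.73 and passed (adjusted p = 0.0127). The clone probe of Sptlc2 stood at -0.33 ± 0.12 (adjusted p = 0.14), whereas the RefSeq probes gave 0.26 ± 0.11, 0.02 ± 0.16 and -0.12 ± 0.19. Sgpl1 stood at -0.28 ± 0.13 (adjusted p = 0.219) and its second probe at -0.48 ± 0.14 (adjusted p = 0.105 over all probes). Smpd3 differed by 1.38 ± 0.77 (adjusted p = 0.309) and Ugcg by 0.30 ± 0.17 (adjusted p = 0.32). Degs1 differed by 0.24 ± 0.12 (adjusted p = 0.254), Smpd1 by -0.06 ± 0.11 (adjusted p = 0.776) and Sptlc1 by 0.00 ± 0.10 (adjusted p = 0.999). Degs2 read -4.84, -4.61 and -4.40 in HFD+APS, not well above background on any of these arrays. With HFD+APS arrays counted at no less than their detection limit, HFD+APS stood 1.79-fold lower than chow, again not a strict bound.

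**Figure D3:**
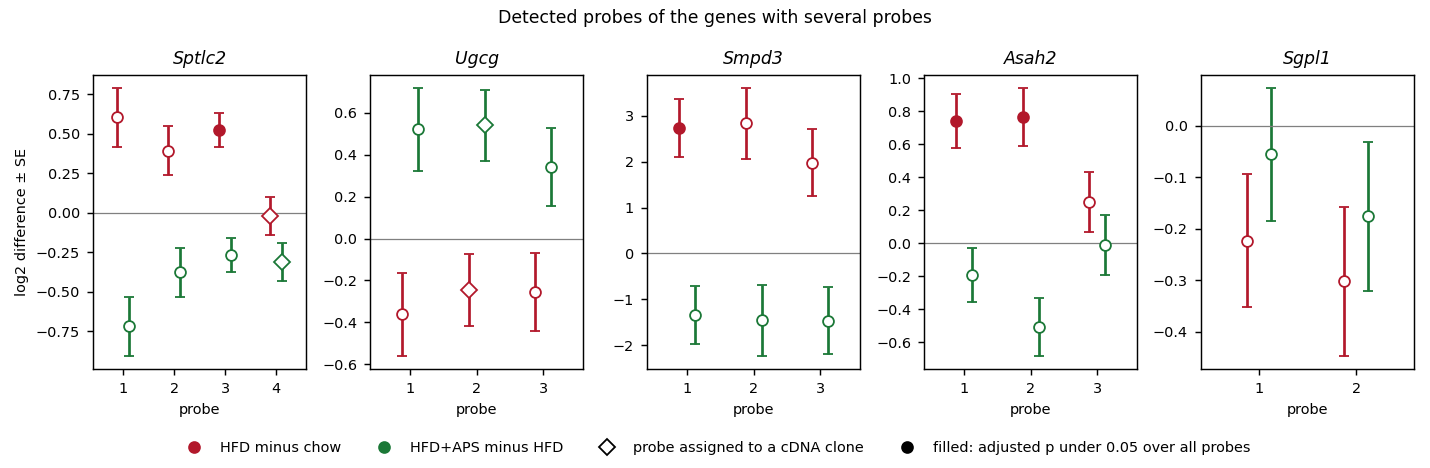
Log2 differences ± SE of every detected probe of the 5 genes with several probes, numbered by position along the chromosome, in red for HFD minus chow and in green for HFD+APS minus HFD, with diamonds for probes assigned to a cDNA clone. The 3 RefSeq probes of Sptlc2 lie at 0.39 to 0.61 in HFD minus chow and its clone probe at -0.02, while the 3 probes of Smpd3 lie at 1.98 to 2.84.

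Among the 9 tested genes, Smpd1 and Smpd3, both sphingomyelinases, had the highest correlation over the 9 arrays (r = 0.72), and Smpd1 and Ugcg the lowest (r = -0.75). Both values mix differences between diets with those between livers and are given as a description. Asah2 had the smallest p of any member, and the 3 genes whose signals followed it most closely over the 9 arrays were Tmem35b, 3110040N11Rik and Nxpe2 (r = 0.984, 0.982 and 0.977 among 14135 genes with a RefSeq match and a value on every array).

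The rest of the pathway was read from 53 listed genes, of which 43 were tested. In HFD against chow 3 of the 43 rose and 0 fell, against 4.25% and 6.67% of all genes, 29 of 43 differences were positive, against 7871 of 17629 over all genes, and the median was 0.13, against -0.05 over all genes. Hexa, a subunit of a lysosomal hexosaminidase that degrades gangliosides, rose 1.54-fold, with 3.82, 3.55 and 3.79 in HFD and 3.00, 3.04 and 3.25 in chow (0.62 ± 0.12, adjusted p = 0.0195). Its call ended without chow 1 (adjusted p = 0.051), chow 2 (0.0684) or HFD 3 (0.058). Smpdl3a, a phosphodiesterase related to acid sphingomyelinase, rose by 0.58 ± 0.12 (adjusted p = 0.0278), a call that ended without any 1 chow array, HFD 1 or HFD 2 (adjusted p up to 0.0792) and with slide as a random block (adjusted p = 0.0625). Gltp, which moves glycolipids between membranes, rose by 1.27 ± 0.31 (adjusted p = 0.0382), read well above background on 3 HFD arrays and 2 chow arrays. Its call ended without any 1 chow or HFD array and without HFD+APS 3 (adjusted p reaching 0.111), and with normexp background correction it stood at 0.29 (adjusted p = 0.108). A random block for slide also ended it (adjusted p = 0.0875).

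By group, 0 of 9 other genes of de novo synthesis, 0 of 4 of ceramide breakdown and phosphorylation and 0 of 8 of sphingosine 1-phosphate passed in HFD against chow, by limma, with 3, 2 and 3 at an unadjusted p under 0.05. Over all genes 10.9% passed and 31.4% had an unadjusted p under 0.05. The passing genes were 1 of 6 of sphingomyelin metabolism (Smpdl3a), 1 of 13 of glycosphingolipids (Hexa) and 1 of 3 transfer proteins (Gltp).

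In HFD+APS against HFD, 2 of the 43 fell and 0 rose, against 0.947% of all genes called lower and 0.442% called higher, and the median was -0.10. Hexa read 3.05, 3.08 and 3.15 in HFD+APS, below every HFD array (-0.63 ± 0.12, adjusted p = 0.0462). Arsa, the lysosomal sulfatase that removes sulfate from sulfatide, read 3.65, 3.82 and 4.01 in HFD+APS and 4.56, 4.36 and 4.43 in HFD (-0.62 ± 0.12, adjusted p = 0.0472; chromosome 15, 89303066 to 89303125). Both calls ended in each of the 9 fits that left out 1 array (adjusted p from 0.0541 to 0.143 for Hexa and from 0.0552 to 0.145 for Arsa). Over all 17629 genes these fits called 51 (without HFD+APS 3) to 570 (without HFD+APS 1), where the main fit called 245. With slide as a fixed block the differences were -0.67 for Hexa and -0.80 for Arsa. That fit rests on HFD+APS 1 alone against the HFD arrays, since slide 3 held no HFD array. In HFD+APS against chow 0 of the 43 passed by limma, against 0.891% of all genes called higher and 2.65% called lower, and the median was -0.0024. At an unadjusted p under 0.05 there were 7 higher and 5 lower of the 43, against 25% of all genes in either direction. Hexa differed by less than its SE there (adjusted p = 0.992), and Arsa stood at -0.52 ± 0.12 (adjusted p = 0.0512).

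**Figure D4:**
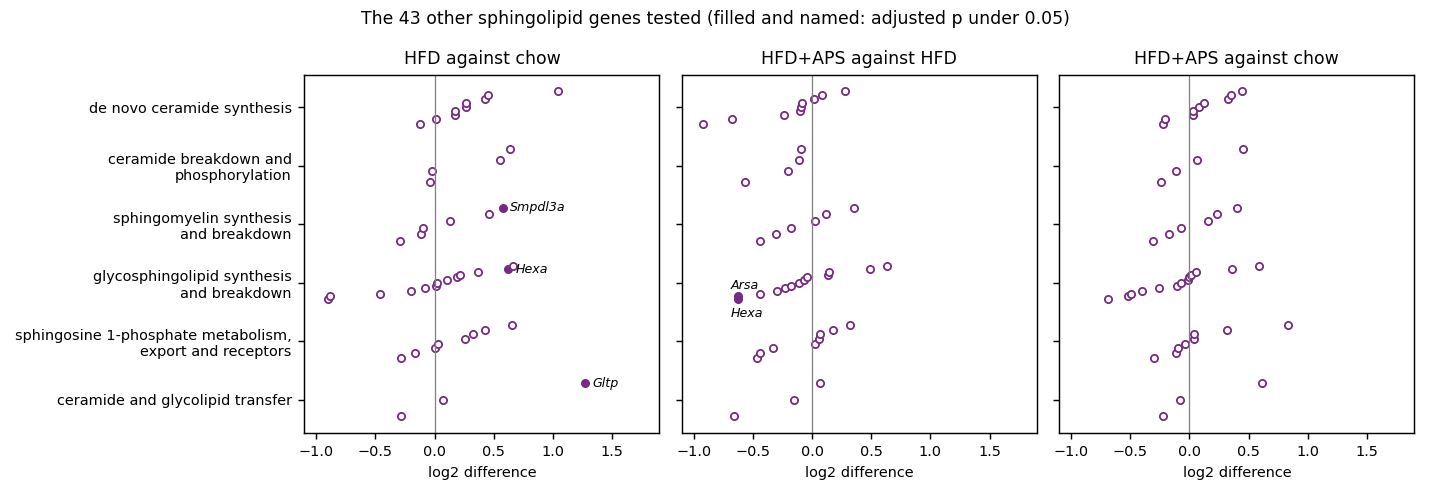
Log2 differences of the 43 other sphingolipid genes tested, 1 point per gene, grouped by role, in the 3 comparisons (first-named group minus the second). Filled points with names passed the threshold: Gltp (1.27), Hexa and Smpdl3a in HFD against chow, and Hexa and Arsa at -0.63 and -0.62 in HFD+APS against HFD. No point is filled in HFD+APS against chow.

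Some markers of other liver cells passed the test between HFD and chow, beside the genes above. By limma 10.9% of all genes were called there, and 31.4% had an unadjusted p under 0.05. Between HFD+APS and HFD these shares were 1.39% and 17.7%. Monocyte-derived macrophage markers (4 of 5 measured, Gpnmb not tested) had a summed signal of 8.76 to 18.9 in HFD+APS, 20.9 to 26.9 in HFD and 6.45 to 6.84 in chow, so that HFD was highest, as it was for Hexa. Within this list 2 of 4 (Ly6c2 and Trem2) rose in HFD against chow, and 0 of 4 passed in HFD+APS against HFD by limma, with 2 at an unadjusted p under 0.05. Kupffer cell markers (6 of 6 measured) summed to 38.6 to 84.2 in HFD+APS, 49.8 to 78.7 in HFD and 30.7 to 44.3 in chow, with HFD+APS 1 the highest of the 9 arrays, and 0 of 6 passed in HFD against chow by limma, with 4 at an unadjusted p under 0.05. Neutrophil markers (3 of 4, Ngp not tested) summed to 2.67 to 8.42 in HFD+APS, 4.32 to 47.6 in HFD and 1.33 to 6.13 in chow, and the high value was that of HFD 3, the array with the highest Smpd3 signal. In HFD against chow 0 of these 3 neutrophil markers passed by limma, with 0 at an unadjusted p under 0.05. On HFD 1 and HFD 2 the neutrophil sum was 6.86 and 4.32. HFD 3 was also the highest array for the sum of cholangiocyte markers (5 of 5 measured). They summed to 5.60 to 6.63 in HFD+APS, 6.31 to 45.2 in HFD and 5.92 to 6.04 in chow. The high sum came mostly from Spp1, which read 5.44 on HFD 3 and 2.48 and 2.79 on HFD 1 and HFD 2. Sox9 also peaked on HFD 3 (0.53), but Krt7, Krt19 and Epcam did not (-1.93, -2.71 and -3.49 there). Of the macrophage markers, Trem2, Ccr2 and Itgax also peaked on HFD 3 and Ly6c2 on HFD 2. Lymphocyte markers (5 of 6, Cd8a not tested) summed to 0.37 to 0.67 in HFD+APS, 0.48 to 0.72 in HFD and 0.73 to 0.90 in chow, with Cd4 called lower in HFD than in chow (-0.73 ± 0.18, adjusted p = 0.0386) and 3 of 5 lower at an unadjusted p under 0.05. Cd4 was dim on the HFD arrays (-3.69, -3.55 and -3.81). The detection limit used for Degs2 averaged -3.39 there, so both the call of Cd4 and the size of its difference are uncertain. Stellate cell markers (6 of 6) summed to 101.3 to 119.5 in HFD+APS, 106.9 to 127.1 in HFD and 64.1 to 113.4 in chow. This sum came mostly from Dcn, with means of 6.72 in HFD+APS, 6.73 in HFD and 6.35 in chow. The collagen genes Col3a1 and Col1a1 rose in HFD against chow (1.78 and 2.07, 2 of 6 called) and stood at -1.49 and -1.69 in HFD+APS against HFD (adjusted p = 0.0566 and 0.111). Sinusoidal endothelial markers (6 of 6) summed to 56.2 to 63.9 in HFD+APS, 51.7 to 61.8 in HFD and 26.6 to 42.9 in chow, with Clec4g and Oit3 (2 of 6) called higher in HFD than in chow. The part of these cell types in the results for the enzymes was not tested. Without HFD 3, the difference between HFD and chow was 2.40 for Smpd3 (adjusted p = 0.135).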

How the data were processed

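Total RNA of 9 livers was hybridised to 1-colour (Cy3) Agilent arrays. Per the file headers, the deposited processed signal is an intensity per spot from Feature Extraction 10.7.1.1, background-subtracted and detrended within its array and not scaled between arrays. A further deposited table gives the authors' log2 values per probe, with medians of 4.98 to 4.99. How that table was normalized is not given in the sources used here (limma is listed in the submitters' processing notes).

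Spots marked as outliers and 1639 control spots of 45018 were left out, spots of a probe were averaged, and log2 values were centred on the 75th percentile of their array (R 4.3.3 with the package data.table, version 1.17.8). Probes well above background on at least 3 of 9 arrays entered (26473), and the brightest probe stood for its gene. Probes were named through RefSeq (GRCm38.p6): 27668 by their own accession, 93 by another, 5531 by symbol and 460 by synonym, while 7422 kept the file's name. limma 3.58.1 (lmFit, eBayes; 6 residual and 2.25 prior degrees of freedom; 5 missing values in all) was run on all 9 arrays and tested on simulated data. All members were named. Of the 53 other genes, those past the threshold were named, at most 8 per comparison, and others only where stated. 1 further listed gene is not reported here. The members and lists were chosen with earlier results of these data known. The alternatives were the background correction, normalization, filter, probe rule, slide, array weights, a replicate block and each array left out.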

Additional observations from a re-analysis of the deposited data

How the results depend on the processing

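Between HFD and chow the count of members called was 1, and it was 2 with normexp, with quantile normalization, with the deposited table, with the detection filter set to all 9 arrays, with only the 2 groups compared and with array weights (Asah2 and Smpd3 each time). Without a filter it was 1, which was Degs2 (not well above background on any HFD array, so that its fitted value is no measured fold), and Asah2 was not called (adjusted p = 0.0644). The count was 0 with the mean of all detected probes, with slide as a random block and with the replicate block, 3 when each probe was tested on its own (an alternative chosen after seeing the data, as was the use of RefSeq probes only), and 0 to 2 with 1 array left out. The other sphingolipid genes called numbered 3, and 0 without a filter, 7 with array weights, 1 with slide as a random block and 0 to 6 with 1 array left out (0 without chow 2, 6 without HFD+APS 1). Between HFD+APS and HFD the members stayed at 0 in all 22 alternatives. The other genes, 2 of which were called, went to 0 without a filter, with only the 2 groups compared, with slide as a random block, with the replicate block and with any 1 array left out (0 to 0). Slide as a fixed block rests on HFD+APS 1 alone against the HFD arrays, so only its differences are read. Between HFD+APS and chow the members reached 1 (Sphk2) with normexp and with the filter set to all 9 arrays, 3 with array weights (Asah2, Sphk2 and Sptlc2) and 0 to 1 with 1 array left out. The other genes, at 0, reached 2 with normexp, 1 with quantile normalization and with the deposited table, 3 with the filter set to all 9 arrays, 9 with array weights and 0 to 1 with 1 array left out. Calls over all genes moved as well. Array weights called 3115 of 17629 genes in HFD against chow and 3189 in HFD+APS against chow. The main fit called 1924 and 624, slide as a random block 669 and 161. Without a filter 809 and 233 of 27339 were called. The changed counts are therefore not read as particular to these genes.

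For single genes, Sptlc2 in HFD against chow turned to 0.375 with the mean of all probes and 0.39 with RefSeq probes only, and ranged from -0.12 to 0.051 with 1 array left out. In HFD+APS against chow it was 0.016 with RefSeq probes only. Degs1 in HFD against chow was -0.021 with quantile normalization, -0.014 with the deposited table, -0.014 with array weights and -0.092 to 0.10 with 1 array left out. In HFD+APS against HFD, slide as a fixed block (HFD+APS 1 alone against the HFD arrays) gave 0.062 for Smpd3 and 0.049 for Sgpl1. Sgpl1 ranged from -0.14 to 0.041 with 1 array left out. In HFD+APS against chow, Sptlc1 was -0.0064 with array weights and -0.048 to 0.060 with 1 array left out, and Smpd1 was 0.0068 with normexp. The cause was not tested, except that the Sptlc2 values with the mean of all probes or RefSeq probes only follow from which probes stand for the gene. Of the 650 alternative values for single genes, 555 kept their direction and their side of the threshold, but most belong to results that were not called. Called results kept both less often. In HFD against chow these were Asah2 in 10 of 20, Hexa in 16 of 20, Smpdl3a in 11 of 20 and Gltp in 9 of 19 alternatives. In HFD+APS against HFD they were Hexa in 7 of 21 and Arsa in 7 of 21. Same-numbered arrays of different groups correlated at -0.18 to 0.16 in their deviations from the group means (9 pairs, 3 of them over 0.1). With 3 arrays per group, these values cannot tell whether such arrays share more than a number, and the main fit used no pairing. Dim probes, such as that of Degs2, limit what can be read.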

Other observations

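Ceramide synthases, which add the acyl chain and differ in the chain length they prefer, were read for 4 of 6 genes, named here after their values were seen. None was called in any comparison by limma. Of the 9 tested genes of de novo synthesis 0 passed, while an unadjusted p under 0.05 was found for 2 between HFD+APS and HFD, for 2 between HFD+APS and chow and for 3 between HFD and chow. Over all genes the shares were 17.7%, 25% and 31.4%. Cers6, which favours long-chain substrates, read 1.18, 2.09 and 1.48 in HFD+APS, 2.61, 2.68 and 2.24 in HFD and 0.55, 2.40 and 1.44 in chow. The HFD+APS values lay below all HFD values (-0.92 ± 0.43, adjusted p = 0.313) and inside the chow range. Cers4 read -0.27, -0.30 and -0.19 in HFD+APS and -0.67, -0.87 and -0.56 in chow, without overlap (0.45 ± 0.11, adjusted p = 0.0602). Cers2, the main synthase of very-long-chain ceramides in liver, stood 0.35 ± 0.15 higher in HFD+APS than in chow (adjusted p = 0.185), and Cers5 differed by -0.21 ± 0.19 (adjusted p = 0.534).

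Kdsr, which reduces the product of serine palmitoyltransferase and is also named after its values were seen, read 1.58, 1.46 and 1.62 in HFD+APS, 2.52, 2.15 and 2.01 in HFD and 1.72, 1.72 and 1.901 in chow. Every HFD value lay above every value of the other diets. The difference was -0.68 ± 0.14 between HFD+APS and HFD (adjusted p = 0.0655) and 0.45 ± 0.14 between HFD and chow (adjusted p = 0.0803).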
